A study of Rattus norvegicus with 6 samples.

Results

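The genes described here encode interferon-inducible GTPases: 4 guanylate-binding proteins (Gbp1, Gbp2, Gbp4 and Gbp5), 2 Mx proteins (Mx1 and Mx2) and 3 immunity-related GTPases, or IRG proteins (Igtp, Irgm and Ifi47). They were chosen by symbol from the table of read counts per gene, with results of the same comparison known, and all 9 had a row among its 18718 genes. RNA was sequenced from 6 libraries of HEI-OC1 cells, an established line derived from the organ of Corti of the inner ear. Of these, 3 libraries (siHnrnpd 1 to 3) came from cells treated with an siRNA against Hnrnpd, the gene for the RNA-binding protein AUF1, and 3 (control 1 to 3) from cells treated with a control siRNA. The siRNA dose and the time of harvest are not given in the labels used here. Nor do they say whether replicates came from separate cultures, so the spread behind each p-value may be technical only. HEI-OC1, labelled here as rat, is widely described as a mouse line, and it carries an immortalising transgene under an interferon-inducible promoter. From which species the reads came was not tested.

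Interferons signal through Janus kinases to STAT and IRF transcription factors. STAT dimers bind GAS elements, and IRF factors, alone or in a complex with STAT proteins, bind interferon-stimulated response elements (ISRE). Guanylate-binding proteins and IRG proteins are large GTPases that coat the vacuoles of intracellular pathogens and help to break them, and some of them promote inflammasome activity. Mx proteins are dynamin-like GTPases that trap viral components. Cells at rest usually express these genes at low levels, and interferon-gamma or type I interferons raise them.

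The promoter letters are shown first. The letters themselves took no part in choosing the genes described here. The genes were chosen as interferon-inducible, however, so their share of ISRE and GAS letters is not independent of that choice. RefSeq windows of the rat assembly GRCr8, from 250 bases before to 50 bases after a start site, matched 8 of the 9 genes in 9 windows, with 2 windows for Gbp1. Mx2 was not matched. Each window was searched on both strands for an ISRE core, GAAA-NN-GAAA (4 fixed bases, 2 of any kind, 4 fixed bases), and for a GAS element, TTC-NNN-GAA, where N is any base. In the lines that follow, read 5′ to 3′ on the strand of the gene, capitals mark these letters. The stretches of Gbp5, Gbp4 and Gbp2 hold the ISRE core on the opposite strand, where it reads as TTTC-NN-TTTC. Those of Irgm and Igtp hold a GAS match followed by an ISRE core.
Gbp2, chr2:234005676-234005725, plus strand: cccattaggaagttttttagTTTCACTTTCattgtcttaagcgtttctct
Gbp5, chr2:233910923-233910972, plus strand: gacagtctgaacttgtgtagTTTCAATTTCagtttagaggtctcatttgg
Gbp4, chr2:233978456-233978505, plus strand: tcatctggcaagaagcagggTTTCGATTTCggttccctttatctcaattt
Irgm, chr10:33742583-33742643, minus strand: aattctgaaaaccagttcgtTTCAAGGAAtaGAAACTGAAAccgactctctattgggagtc
Igtp, chr10:42874913-42874973, plus strand: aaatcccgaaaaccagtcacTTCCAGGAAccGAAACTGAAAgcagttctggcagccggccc

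The ISRE core occurred in the windows of 6 of the 8 matched genes (Gbp1, Gbp2, Gbp4, Gbp5, Igtp and Irgm), against 3.92% of all 33469 windows and 4.12% of the 27457 genes with a window. It began 31 bases before the start site in Gbp2, 56 in Gbp5, 10 in Gbp4, 34 in Irgm and 103 in Igtp. In Gbp1 it was found in 1 of the 2 windows, that of an alternative start, with 3 matches. The GAS letters occurred in the 3 IRG genes, Igtp, Irgm and Ifi47, and in none of the 6 windows of the other matched genes, against 8.87% of all windows. In both Irgm and Igtp the 2 matches lay 2 bases apart and did not overlap. Ifi47 held 2 GAS matches and no ISRE core, and the Mx1 window held neither. A match is a description of these letters and not a binding site. Which start site the cells used was not measured. The letters are those of the rat assembly, and whether the cells carry the same letters was not tested.
The Ifi47 stretch with its 2 GAS matches is chr10:33798512-33798676, plus strand: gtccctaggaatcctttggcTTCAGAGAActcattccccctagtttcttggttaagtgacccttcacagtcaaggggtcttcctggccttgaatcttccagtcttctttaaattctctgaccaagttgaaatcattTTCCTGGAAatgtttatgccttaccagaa

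The genes also fall into a few loci. Per the deposited table, the guanylate-binding proteins lie on chromosome 2, Mx1 and Mx2 on chromosome 11, and the IRG genes on chromosome 10. In the order of RefSeq protein-coding genes, Gbp5, Gbp7, Gbp4, Gbp2 and Gbp1 follow each other without a gene in between. Fam3b stands between Mx1 and Mx2, and RGD1559575 between Irgm and Ifi47. Paralogs within each family are similar in sequence, and the counting may have divided reads among copies, which leaves the counts of single genes uncertain.

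The libraries held 28984535 to 35842904 gene counts, and 12268 genes passed the filter on low counts and were tested. The siRNA target Hnrnpd (listed as Hnrpd) stood at 59.5%, 67.4% and 61.6% of its control mean in siHnrnpd 1, 2 and 3. Hair cell markers were mostly at or near 0: Gfi1 had 0 to 1 counts and Espn 0 to 2 per library, Atoh1 and Pou4f3 were not matched, and Myo6 had 1101 to 1225. Fibroblast and mesenchymal markers, 9 of 9 matched, summed to 6840 to 7330 CPM in control (CPM is a gene's count scaled to library size, with TMM factors) and 6980 to 8340 CPM in siHnrnpd, highest in siHnrnpd 3. Most of that sum was Vim and Col1a1, while Dcn had 2 to 9 counts, Postn 2 to 10 and Acta2 2 to 8 per library. The part of these markers in the results was not tested. For macrophage and other leukocyte markers, 11 of 12 matched, the sum was 61.5 to 66.5 CPM in control and 69.8 to 72.8 CPM in siHnrnpd, most of it Cd14, while Ptprc had 0 to 1 counts, Adgre1 0 to 2 and Csf1r 0 to 3 per library.

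The first question was how strongly the cells expressed each GTPase. Levels of different genes were compared per length, in the FPKM that the authors computed, which is scaled for gene length and library size. In control cells Mx2 was the highest of the 9, with 69.0, 106.08 and 79.18 FPKM in controls 1, 2 and 3. Gbp2 came next with 20.18 to 21.81 FPKM, then Irgm with 16.13 to 18.0 and Gbp5 with 10.97 to 12.31. Mx1 had 7.3 to 11.82 FPKM, a range that overlapped with Gbp5 above it and Gbp4 below it (8.27 to 9.67). Igtp had 6.77 to 8.01 FPKM and Ifi47 2.05 to 2.95. Gbp1 was the lowest, at 0.13 to 0.27 FPKM from 8 to 20 reads, and did not pass the filter on low counts. Apart from Mx1 with Gbp5 and with Gbp4, no neighbours in this order overlapped in control. How evenly the reads of these genes mapped was not tested, so the order is that of the deposited values.

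In the siHnrnpd cells all 9 genes had a lower mean, and the order was less clear. Mx2 had 51.57, 59.68 and 7.29 FPKM in siHnrnpd 1, 2 and 3, so that its lowest library lay within the range of Irgm (5.23 to 12.4) and under that of Gbp2 (7.56 to 10.84). By their means Irgm, at 9.82 FPKM, stood above Gbp2, at 9.3 FPKM, while in control Gbp2 stood above Irgm at 20.9 against 16.8 FPKM. The ranges of Irgm and Gbp2 overlapped in siHnrnpd. Ifi47 (0.32 to 1.5 FPKM) and Gbp1 (0.05 to 0.13 FPKM) were again the lowest. The ratio of Gbp2 to Irgm counts within a library, which needs no scaling, was 1.37, 1.33 and 1.4 in the controls. It lay under that range at 0.881 and 0.958 in siHnrnpd 1 and 2, and above it at 1.58 in siHnrnpd 3.

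**Figure D1:**
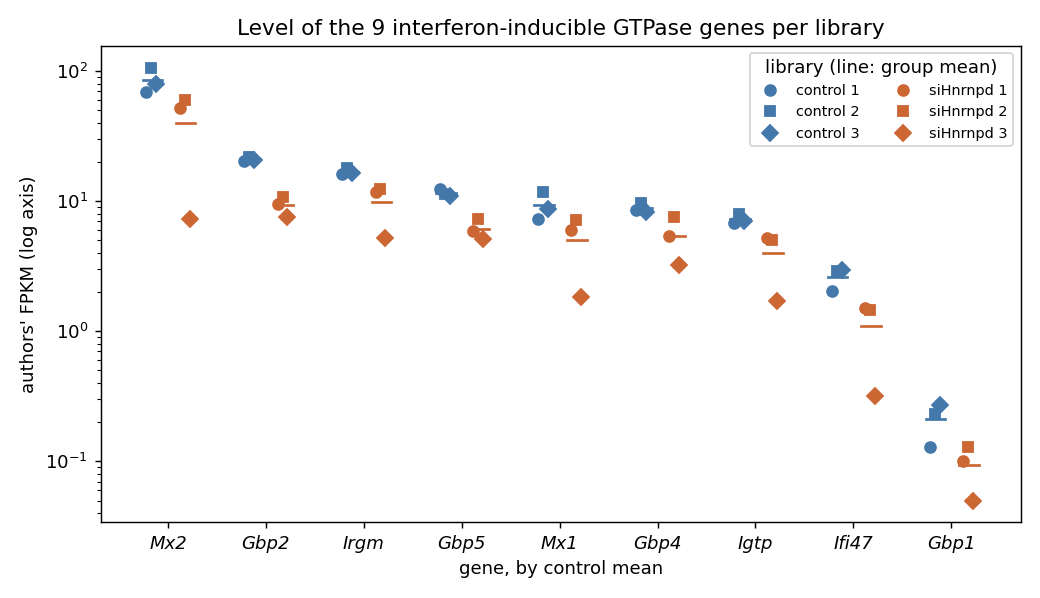
Level of each of the 9 genes in each library, as the authors' FPKM on a log axis, ordered by control mean; blue is control, orange siHnrnpd, symbols mark the replicate number and lines the group means. Mx2 in siHnrnpd 3, at 7.29 FPKM, lies far under the other siHnrnpd libraries, at 51.57 and 59.68.

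The comparison of siHnrnpd with control asks how these levels differ when Hnrnpd is reduced. Gbp2, a prenylated guanylate-binding protein that attaches to pathogen vacuoles, stood at 58.9, 64.5 and 59.8 CPM in the controls and, in the same order of replicates, at 27.5, 31.7 and 21.4 CPM in the siHnrnpd libraries. None of the siHnrnpd libraries stood far from the others. Gbp2 fell by 1.19 on the log2 scale (SE 0.12), from a mean of 61.1 ± 3.01 CPM in control to 26.8 ± 5.18 CPM in siHnrnpd (SD, n = 3). Gbp5, known for promoting assembly of the NLRP3 inflammasome, had 45.0, 42.3 and 39.4 CPM in control and 21.3, 26.5 and 18.2 CPM in siHnrnpd and fell by 0.94 on the log2 scale (SE 0.13). Its siHnrnpd libraries also lay close together, at 50.4%, 62.8% and 43.0% of the control mean.

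Gbp4, another guanylate-binding protein, was less uniform, with 26.5, 30.3 and 25.1 CPM in the controls and 16.5, 23.5 and 9.64 CPM in siHnrnpd. Its value in siHnrnpd 2 lay just under the lowest control, and the log2 value was -0.72 with an SE of 0.25. Gbp1 had 8, 15 and 20 counts in the controls, against 7, 9 and 3 with the Hnrnpd siRNA, too few for the fit. In an edgeR fit without the filter its log2 value was -1.22 and it was not called, while Gbp2, Gbp5, Irgm and Ifi47 were, in a fit that called 0.54% of all genes lower. The ratio of Gbp2 to Gbp4 counts was 2.23, 2.13 and 2.38 in the controls, against 1.67, 1.35 and 2.22 with the Hnrnpd siRNA, so siHnrnpd 1 and 2 held less Gbp2 for each Gbp4 read than control did, and siHnrnpd 3 did not.

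The IRG genes lay lower in every siHnrnpd library, least in siHnrnpd 1 and 2. Irgm, a regulator that keeps other IRG proteins off host membranes, had 43.0, 48.6 and 42.6 CPM in control and 31.2, 33.1 and 13.5 CPM in siHnrnpd. Igtp, also a regulatory IRG protein, had 34.0, 40.7 and 34.7 CPM in control and 25.9, 25.2 and 8.3 CPM in siHnrnpd. Ifi47, the least expressed of these 3, had 4.52, 6.44 and 6.39 CPM in control and 3.29, 3.2 and 0.674 CPM in siHnrnpd. In each of them siHnrnpd 1 and 2 lay close together and siHnrnpd 3 was far under both, and the groups did not overlap. The log2 values were -0.78 for Irgm, -0.88 for Igtp and -1.27 for Ifi47, with SEs of 0.26, 0.33 and 0.41.

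Of the 8 tested genes, Mx2 had the widest spread between libraries. It had 238, 370 and 268 CPM in the controls, against 176, 206 and 24.3 CPM with the Hnrnpd siRNA. Thus siHnrnpd 3 stood at 8.34% of the control mean and siHnrnpd 1 and 2 at 60.3% and 70.5%, while the controls themselves ran from 81.4% to 127%. Mx1, whose rodent protein acts in the nucleus against influenza viruses, had 28.5, 46.7 and 33.6 CPM in control and 23.3, 27.9 and 6.89 CPM in siHnrnpd. In siHnrnpd 2 it lay just under the lowest control. The log2 values were -1.11 for Mx2 and -0.90 for Mx1, with SEs of 0.56 and 0.39. The ratio of Mx2 to Mx1 counts was 7.93 to 8.35 in control, 7.57 and 7.36 in siHnrnpd 1 and 2, and 3.53 in siHnrnpd 3.

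**Figure D2:**
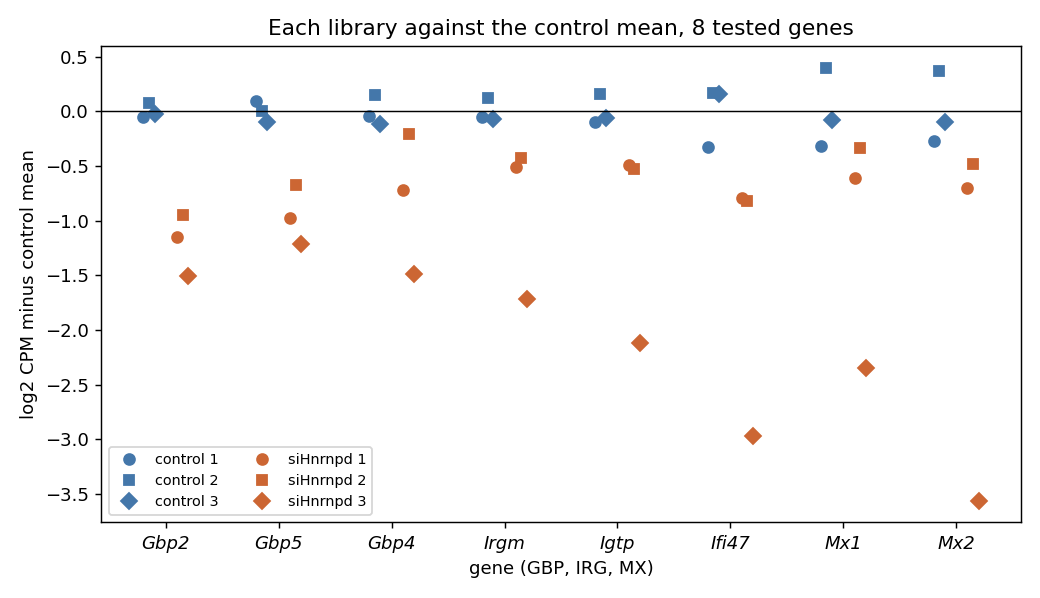
Log2 CPM of each library minus the control mean for the 8 tested genes; blue is control, orange siHnrnpd, and the symbols mark the replicate number. The siHnrnpd 3 library is the lowest for all 8 genes and reaches -3.56 for Mx2, while Gbp2 lies between -1.51 and -0.95 and Gbp5 between -1.21 and -0.67.

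Summed over the family, the guanylate-binding proteins had 131, 138 and 125 CPM in the controls and 65.5, 81.9 and 49.3 CPM in the siHnrnpd libraries, the latter 2 of which are 62.5% and 37.6% of the control mean. The IRG genes together stood at 69.5%, 70.7% and 25.8% of the control mean in siHnrnpd 1, 2 and 3, and the Mx genes at 60.7%, 71.2% and 9.51%. By these sums the guanylate-binding proteins stood lowest of the 3 families against control in siHnrnpd 1 and 2, and highest in siHnrnpd 3. This did not hold for each member. In siHnrnpd 2 Gbp4 stood at 86.0% of its control mean, above every Mx and IRG gene there.

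The siHnrnpd libraries also differed in which GTPase lay lowest against control. In siHnrnpd 1 and 2 Gbp2 was the lowest of the 8 tested genes, and in siHnrnpd 3 it was Mx2. The median of the 8 log2 values against the control mean in the siHnrnpd libraries, in the order of their numbers, was -0.71, -0.50 and -1.92, while the controls had medians of -0.077, 0.16 and -0.073. Mx2 made up 49.7% to 56.9% of the counts of the 9 genes in the controls and in siHnrnpd 1 and 2, and 23.6% in siHnrnpd 3. The median over all genes tested lay between 0.00029 and 0.013 in the 6 libraries, and the median size of a gene's difference from the control mean was 0.154, 0.103 and 0.136 in siHnrnpd 1, 2 and 3, so siHnrnpd 3 did not stand apart over all genes in the way it did in these. The low value in siHnrnpd 3 was not particular to the GTPases. Isg15, listed below as a feedback inhibitor of interferon signalling, stood at 63.8%, 67.7% and 27.2% of its control mean in siHnrnpd 1, 2 and 3. The median of that list against control was -0.13, -0.13 and -0.11 in these libraries. Hnrnpd itself, at 61.6% of control in siHnrnpd 3, was between its values in the other 2 siHnrnpd libraries. In bulk RNA, fewer cells that express a gene and less RNA in each cell cannot be told apart.

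Over all 12268 genes tested, edgeR's quasi-likelihood test with Benjamini-Hochberg adjustment called 7 lower at an adjusted p under 0.05, or 0.0571%, and Gbp2 and Gbp5 were 2 of them. In either direction it called 10, or 0.0815%, of which the higher ones were 0.0245% and held no GTPase. The other 6 tested GTPases were not called, and all but Mx2 had an unadjusted p under 0.05, as had 5.2% of all genes with a lower and 5.84% with a higher level in siHnrnpd. DESeq2 called 0.934% of its genes lower, among the GTPases the same 2. All 8 lay lower without overlap between the groups, as did 8.57% of all genes, while 8.42% lay higher without overlap. A negative log2 value was found in 48.3% of all genes, siHnrnpd 3 was the lowest of the 6 libraries in 18.3%, and both held for all 8. The GTPases ran from -1.27 for Ifi47 to -0.72 for Gbp4, and their median was -0.92 against 0.0054 over all genes tested. Because the 9 genes were chosen with this comparison known, these counts only describe them, and nothing is read from them. Without siHnrnpd 3 the 8 genes lay lower without overlap again, as did 13.3% of all genes. Then edgeR called Gbp2 alone among the 9 GTPases (0.0563% of genes called lower), all but Gbp1 had an unadjusted p under 0.05 (5.47% of genes lower), and the log2 values were closer to 0: -1.06 for Gbp2, -0.83 for Gbp5, -0.46 for Gbp4, -0.49 for Irgm, -0.52 for Igtp, -0.85 for Ifi47, -0.51 for Mx1 and -0.62 for Mx2.

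The calls of Gbp2 and Gbp5 were lost without most of the single libraries, while the log2 values changed little. Gbp2 had an adjusted p of 0.0426 in edgeR with all 6 libraries and of 0.0908, 0.319, 0.0508 and 0.161 without control 1, control 2, control 3 or siHnrnpd 1, with log2 values of -1.22 to -1.14. For Gbp5 the adjusted p in edgeR was 0.0445 with all 6 libraries and 0.0975, 0.319, 0.0866, 0.200 and 0.0542 without control 1, control 2, control 3, siHnrnpd 1 or siHnrnpd 3. Both calls held without siHnrnpd 2, and that of Gbp2 also without siHnrnpd 3.

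**Figure D3:**
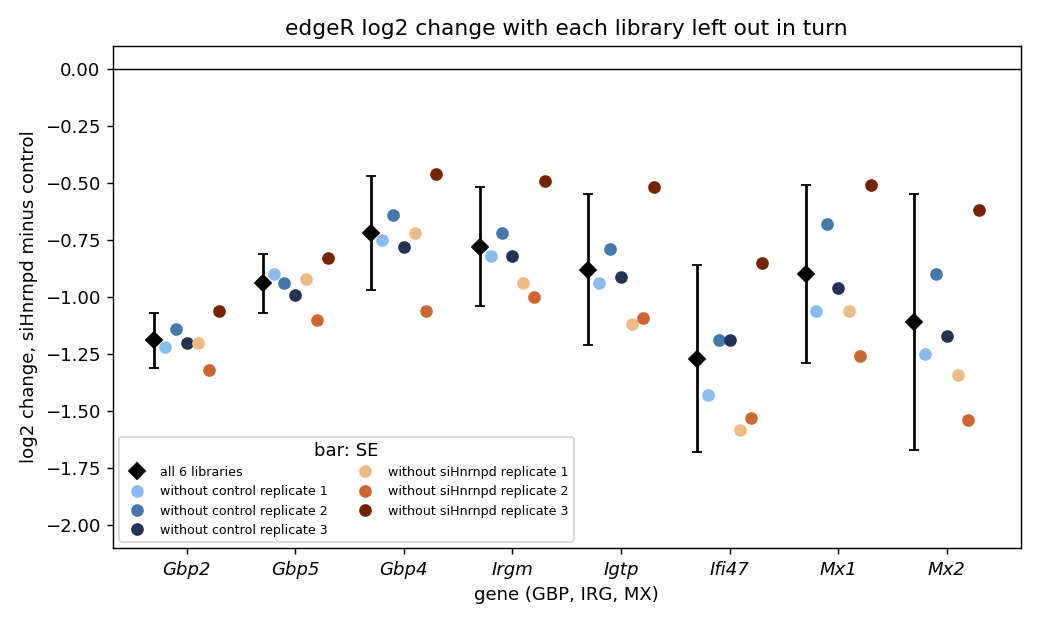
Log2 change of the 8 tested genes in edgeR with all 6 libraries (diamonds, bars are the SE) and with each library left out (circles). Values without siHnrnpd 3 lie closest to 0 for every gene, from -0.46 for Gbp4 to -1.06 for Gbp2.

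Relatives of these GTPases were looked up in a list of other family members, of which 5 of 15 matched and 4 were tested. The row RGD1309362, described as similar to an interferon-inducible GTPase, had 6.93, 8.75 and 5.37 CPM in control and 2.8, 3.14 and 1.26 CPM in siHnrnpd. Its groups did not overlap, and at a log2 value of -1.54 it had an edgeR adjusted p of 0.122. Of these 4 genes edgeR called 0, with 2 lower at an unadjusted p under 0.05, and DESeq2 called RGD1309362 lower. The median was -0.55. A similarly described row that was on no list, MGC108823, was added after its values were seen, with 9.79, 9.62 and 6.28 CPM in control and 4.37, 4.8 and 0.796 CPM in siHnrnpd. The row LOC685067 was matched to Gbp7 by synonym or gene ID, though its own description reads as similar to guanylate-binding protein family member 6. It had 29, 28 and 12 counts in control and 12, 12 and 7 in siHnrnpd. Gbp3 had 0 to 5 counts in any library. Irgq and Irgc, more distant IRG relatives, had log2 values of 0.53 and 0.13 and overlapping groups.

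Dynamins, mitofusins, OPA1 and atlastins are GTPases of related build that act on membranes without need of interferon. Of 9 tested, edgeR called 0 and DESeq2 called 0, with 0 at an unadjusted p under 0.05, and the median log2 value was -0.0022. The smallest p belonged to Atl1, an atlastin of the endoplasmic reticulum, at -0.30. Genes next to the GTPase loci gave a similar picture. The 2 nearest tested protein-coding genes on each side of 4 loci, a rule added after the values of the GTPases were seen, made 16 genes with log2 values from -0.34 to 0.21 and a median of -0.017. None was called by edgeR or by DESeq2, and 2 had an unadjusted p under 0.05. Around the guanylate-binding protein cluster, Pdlim5 and Unc5c on one side had log2 values of 0.21 and 0.13, and Kyat3 and Gtf2b on the other -0.08 and 0.026.

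Of the interferons listed, Ifnb1 had 1 to 4 counts and Ifne 0 to 4 counts per library. The other 6 were not matched and are not analysed here. All 9 interferon receptor chains and Janus kinases were tested and edgeR called 0, with 2 lower at an unadjusted p under 0.05, DESeq2 called 0, and the median was 0.018. Il10rb, a shared receptor chain, had a log2 value of -0.20, Jak2 one of -0.17 and Tyk2 one of 0.15.

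STAT and IRF transcription factors had a median of -0.17 over 11 tested genes, 9 of them negative. By edgeR 0 were called, with unadjusted p under 0.05 for 1 gene that was higher and 3 that were lower, and DESeq2 called Stat2 and Irf1 lower. Irf1, which binds ISRE letters, averaged 101 and 73.2 CPM in control and siHnrnpd (log2 value -0.46, SE 0.091, edgeR adjusted p = 0.133). Stat2 had 369 and 253 CPM (-0.55, SE 0.17, edgeR adjusted p = 0.313). The list's median against control was -0.14, -0.18 and -0.63 in siHnrnpd 1, 2 and 3, so here too siHnrnpd 3 was lowest. Feedback inhibitors had a median of -0.10 over 12 tested genes. By edgeR 0 were called, with 2 lower at an unadjusted p under 0.05, and DESeq2 called Trim21 lower. The ubiquitin ligase Trim21 had a log2 value of -0.67 and the ubiquitin-like modifier Isg15 one of -0.92.

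**Figure D4:**
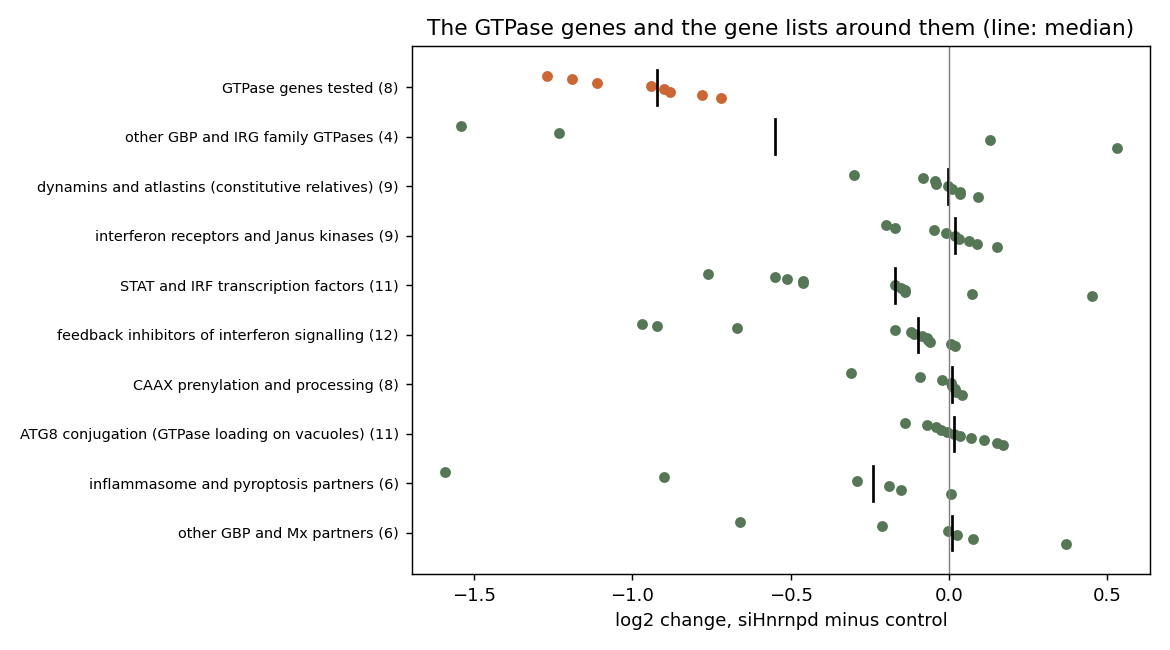
Log2 change of each tested gene (points) and the median (line) for the GTPases and for 9 gene lists around them, with the number of tested genes in brackets. The GTPases lie between -1.27 and -0.72, while the dynamins and atlastins have a median of -0.0022 and the interferon receptors and Janus kinases one of 0.018.

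Proteins that act with these GTPases were examined next. Prenylation anchors Gbp2 and Gbp5 in membranes, and the 8 genes of prenylation and CAAX processing had a median of 0.0086. Fntb, the beta subunit of farnesyltransferase, averaged 85.9 and 69.3 CPM in control and siHnrnpd (log2 value -0.31, SE 0.067, edgeR adjusted p = 0.171). Of the 8, edgeR called 0, with 1 lower at an unadjusted p under 0.05, and DESeq2 called Fntb lower. The ATG8 conjugation system directs the GTPases to vacuoles, and its 11 tested genes had a median of 0.015, with Atg3 at -0.14. Neither edgeR nor DESeq2 called any of them, and 1 had an unadjusted p under 0.05.

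Inflammasome and pyroptosis partners had a median of -0.24 over 6 tested genes, 5 of them negative. By edgeR and DESeq2 0 were called, with 3 lower at an unadjusted p under 0.05. Casp1, the inflammasome caspase, averaged 0.833 and 0.45 CPM in control and siHnrnpd, Gsdmd, which forms the pyroptotic pore, 11.8 and 9.72 CPM, and the nucleic acid sensor Zbp1 0.866 and 0.282 CPM. Counts were low for 2 of these. Zbp1 had 23, 27 and 34 in the controls and 18, 11 and 0 in siHnrnpd 1, 2 and 3. Casp1 had 19, 29 and 33 against 10, 19 and 16 in the same order. Aim2, Nlrp3, Pycard and Il18 were under the filter, with at most 15 counts in a library. Among 6 other partners the median was 0.011, edgeR called 0, and 1 higher and 2 lower genes had an unadjusted p under 0.05. Rnf213, a giant ubiquitin ligase that targets bacteria, averaged 51.4 and 32.5 CPM (log2 value -0.66, SE 0.16, edgeR adjusted p = 0.203), and DESeq2 called it lower. Pim1, a kinase that phosphorylates a guanylate-binding protein, had a log2 value of 0.37, and Lgals3, a galectin that marks broken vacuoles, one of -0.21.

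The GTPases were also compared with each other and with all other genes for likeness across libraries, as a description over 6 libraries that all genes share. Between the 8 tested GTPases the Pearson correlation of log2 CPM ran from 0.784 to 0.997 over 28 pairs, with a median of 0.956, and the lowest was that of Gbp5 with Mx2. Without siHnrnpd 3 it ran from 0.694 to 0.987 over 5 libraries, with a median of 0.887. Both sets of values span the 2 groups. The genes were chosen with the comparison known and all 8 lay lower in siHnrnpd. High correlations therefore follow in part from that choice and are not evidence of their own. Correlations between pairs of other genes were not computed. The 8 other genes with at least 5 CPM on average whose log2 CPM was most like the mean of the GTPases were Rtp4, Ifit2, Mlkl, Ifi44, Samd9l, Oasl2, Cmpk2 and Rnase4, with correlations of 0.9951 to 0.9965. Without siHnrnpd 3 these were 0.97 to 0.998. Rtp4, a receptor transport protein, had 86.1, 113 and 94.1 CPM in control and 61.0, 65.6 and 17.5 CPM in siHnrnpd. Mlkl, the pore-forming protein of necroptosis, spanned a narrower range, with 59.0, 63.2 and 60.5 CPM in control and 53.0, 52.7 and 39.5 CPM in siHnrnpd. Of the 5 of these 8 genes that had a promoter window, 2 held the ISRE core (Ifi44 and Oasl2) and 0 held the GAS letters. None of the 14 matched neighbours of the GTPase loci held either.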

How the data were processed

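Gene levels were measured by RNA-seq (150 nt paired ends, per the labels' protocols) in 3 siHnrnpd and 3 control libraries. The submitters' processing notes name TopHat2 and the build mRatBN7.2. For the counter, its strand setting and the annotation, nothing is given in the sources used here. The deposited tables hold read counts per gene for 18718 genes, not normalized, and FPKM values that the authors computed for 18628 genes. As strand use in counting is unknown, counts of genes that overlap or lie antisense to each other may hold shared reads.

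The main test was the quasi-likelihood test of edgeR 4.0.16 under R 4.3.3 (filterByExpr, TMM factors, a model of group alone, Benjamini-Hochberg adjustment over 12268 genes, calls under 0.05). Log2 values per library use a prior count of 2. The SE is the log2 change divided by the square root of F. Alternatives were DESeq2 1.42.0, limma-voom (limma 3.58.1), other scalings and filters, a replicate block, limma on log2(FPKM + 1) and log2(FPKM + 0.1), and leaving out each library. The tests were checked on simulated counts drawn with a single common spread over all genes. That check held no library far from the others, as siHnrnpd 3 was here for Mx2. No 2 libraries, of 15 pairs compared, were alike within sampling noise. Of 102 list entries 86 matched by symbol, or by synonym or gene ID in a RefSeq table of GRCr8. The genes described and the lists were chosen with earlier results of these data known. The text names all 9 GTPases, Hnrnpd, list members called or else up to 3 with the smallest p, and the 8 genes most like the GTPases. Of these, 1 list member is not reported here. Neighbouring genes, MGC108823 and some list members with few counts were named after their values were seen. For MGC108823, the unadjusted values are given without a test.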

Additional observations from a re-analysis of the deposited data

How the results depend on the processing

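The log2 values of the 8 tested GTPases were negative in all 16 alternatives tried, while calls moved. From 2 GTPases and 10 genes called, upper-quartile scaling gave 1 and 6, no filter on low counts 4 (Irgm and Ifi47 added, at -0.79 and -1.28, both with an edgeR adjusted p of 0.0342) (0.54% of all genes were called lower) and 147, log2(FPKM + 1) 0 and 0 with or without a minimum of 1 FPKM, and log2(FPKM + 0.1) 1 and 5. DESeq2 called the same 2 GTPases and 162 genes. The same 2 were also called by limma-voom, by edgeR with RLE scaling and by edgeR with at least 50 counts in 3 libraries. These 3 fits called 13, 10 and 14 genes. Leaving out 1 library gave 0 to 2 GTPases and 0 to 14 genes. Hnrnpd, at -0.67 (edgeR adjusted p = 0.0426), had -0.65 on log2(FPKM + 1), with limma adjusted p of 0.0508 and 0.137 with and without the minimum, and -0.74 to -0.63 with 1 library left out. With all 6 libraries Hnrnpd was also called by DESeq2 (adjusted p = 2.11e-10), limma-voom (adjusted p = 0.0445) and edgeR with RLE scaling (adjusted p = 0.0384). Its call was kept without siHnrnpd 2 (edgeR adjusted p = 0.0458) and lost without control 1, control 2, control 3, siHnrnpd 1 or siHnrnpd 3 (0.0908, 0.319, 0.0508, 0.175 and 0.0542). The causes were not tested. With the replicate block, edgeR called 0 GTPases and 0 genes, with 1062 genes at an unadjusted p under 0.05, and Hnrnpd had -0.67 (adjusted p = 0.0873). Same-numbered libraries deviated together with correlations of -0.262, 0.137 and 0.104 over genes, so the numbers were not taken as pairs. Of the siHnrnpd libraries, only siHnrnpd 3 correlated best with its own number. Counts of GTPases whose groups did not overlap, chosen after seeing the data, were 8 in CPM, 8 in FPKM and 8 without siHnrnpd 3. Over all genes tested, 8.57% lay lower without overlap in CPM and 13.3% without siHnrnpd 3. No such share is given for FPKM. As the genes were chosen with this comparison known, these counts only describe them. The order of the GTPases in control was the same by mean and by median FPKM, and the ISRE core with a further C, GAAA-NN-GAAAC, was found in 5 genes in place of 6. Gbp1, at 3 to 20 counts per library, was not called in any fit that held it and gave it an adjusted p.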
